A study of Mus musculus with 20 samples.

Results

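The myosin heavy chain genes expressed by adult and developing muscle fibers were examined in the plantaris, a fast hindlimb muscle, of old mice. The members are the 7 rows of the count table named Myh1, Myh2, Myh3, Myh4, Myh7, Myh7b and Myh8, out of 22660 rows, and every one of them was measured highly enough to be tested in each comparison. They were taken by gene name as the adult and developmental isoforms of the family. Sequencing counts came from 20 male C57BL/6J mice, aged 2 years by their labels and bought as old animals from the National Institute on Aging. They formed 4 groups of 5 different animals, sham or MOV, each with vehicle or with D + Q. MOV is mechanical overload of the plantaris, produced by bilateral synergist ablation, in which part of the soleus and the gastrocnemius is cut away. Sham mice had the skin opened with those muscles left in place. D + Q is the senolytic pair of dasatinib, a kinase inhibitor, at 5 mg/kg and quercetin, a plant flavonoid, at 50 mg/kg, given by mouth on days 7 and 10, and vehicle mice received polyethylene glycol alone. All plantaris muscles were collected on day 14, although the series text puts the second dose of sham mice on day 14 instead of day 10. The design asks how overload changed gene expression with either treatment, and whether D + Q changed it at rest or under overload. All groups hold old males only, and each library is a whole muscle, so less RNA per fiber and fewer fibers of a type cannot be told apart.

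Myosin heavy chain is the motor protein of the thick filament, and the isoform a fiber makes largely sets how fast it shortens and how much energy it spends. Adult mouse limb muscle has fast type 2B fibers (Myh4), type 2X fibers (Myh1) and type 2A fibers (Myh2), and slow type 1 fibers (Myh7), in falling order of contraction speed. Myh3 (embryonic) and Myh8 (perinatal) encode isoforms of developing muscle that are also made in regenerating fibers, while Myh7b is a slow-type relative whose transcript carries a microRNA and yields little protein in most limb muscle.

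On GRCm39, 5 of the genes sit in a row on the plus strand of chromosome 11: Myh3 at chr11:66969126-66993117, Myh2 at chr11:67061838-67088989, Myh1 at chr11:67089132-67116631, Myh4 at chr11:67128336-67151274 and Myh8 at chr11:67167746-67199462. Myh7 lies on the minus strand at chr14:55208141-55232084 and Myh7b on the plus strand at chr2:155453096-155476234. The genes are close copies, which bears on every count below. Over the aligned coding bases Myh1 was 91.0% identical to Myh2 and 90.1% identical to Myh4, whereas Myh7b was only 68.8% to 72.0% identical to the other members. The 60-base coding stretches here show the extremes among the adult fast genes, first one in which Myh4, Myh1, Myh2 and Myh8 are the same and then the one in which Myh4, Myh1 and Myh2 differ most. Capitals mark bases that differ from Myh4, and all are exonic coding sequence of the plus strand. The shared stretch is at chr11:67136544-67136603 in exon 12 of Myh4.
Myh4, Myh1, Myh2 and Myh8, shared: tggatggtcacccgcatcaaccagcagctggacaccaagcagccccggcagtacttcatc
Myh3, same stretch: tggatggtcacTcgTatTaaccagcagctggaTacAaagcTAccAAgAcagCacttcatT
Myh4, chr11:67145284-67145343, exon 27: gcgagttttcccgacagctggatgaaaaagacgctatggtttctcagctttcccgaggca
Myh1, chr11:67108290-67108349, exon 28: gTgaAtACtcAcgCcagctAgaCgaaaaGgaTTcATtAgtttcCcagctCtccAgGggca
Myh2, chr11:67082174-67082233, exon 28: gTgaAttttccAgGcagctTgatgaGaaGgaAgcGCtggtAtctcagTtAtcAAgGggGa
Myh8, chr11:67190539-67190598, exon 29: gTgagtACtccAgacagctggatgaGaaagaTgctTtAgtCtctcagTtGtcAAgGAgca
Myh3, chr11:66986835-66986894, exon 29: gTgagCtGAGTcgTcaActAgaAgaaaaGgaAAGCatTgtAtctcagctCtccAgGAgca

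Of 3409 such windows, 187 were identical in Myh4, Myh1 and Myh2, and the median window had 8 positions at which the 3 genes were not all alike. A read that falls wholly in a shared stretch cannot name its gene, and the authors' quantifier divided such reads by expectation-maximization. Of all 100-base stretches of the reference transcript, the share also present in another heavy chain was 8.20% in Myh2, 7.82% in Myh1, 6.61% in Myh8, 3.89% in Myh4 and 1.15% in Myh3. In Myh7 it was 11.4%, all shared with Myh6, the cardiac fast isoform, and in Myh7b it was 0. Myh6 itself stayed at a mean of 1.89 to 2.32 CPM (counts scaled to 1000000 per library) in the 4 groups. Part of the counts of every member but Myh7b is therefore an estimate, and some of them could belong to a related gene. For Myh8 that part need not be small. It averaged 15.7 CPM in vehicle sham muscle, against 58568 CPM for Myh4, so a minute part of the Myh4 reads would be a large part of its level. How far split reads enter the sham level of Myh8 was not tested.

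The 7 genes together took 6.80% of all counts in vehicle sham, 7.21% in D + Q sham, 5.33% in vehicle MOV and 5.19% in D + Q MOV muscle, on average. Total counts per mouse ran from 17887495 to 26234505. The label of the tissue held up against its markers, since all 8 skeletal muscle fiber markers were detected and their summed level was 85940 to 94350 CPM in sham mice. Markers of other cells moved with surgery: the 6 macrophage markers summed to 22.1 to 54.8 CPM in vehicle sham and 105 to 308 CPM in vehicle MOV mice, and to 23.5 to 50.0 and 233 to 284 CPM with D + Q. The 6 fibroblast markers summed to 393 to 572 CPM in vehicle sham and 4558 to 9210 CPM in vehicle MOV mice, and to 473 to 1005 and 8194 to 11171 CPM with D + Q, while the fiber marker sum was 59746 to 79412 and 56101 to 70154 CPM in the vehicle MOV and D + Q MOV groups. How far this share of other cells enters the differences in CPM was not tested. Ratios between members within a mouse, given further on, do not depend on it as long as the members come from fibers.

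The adult fast genes dominated the family, and overload shifted their balance away from Myh4. Under the scaling used here, Myh4 fell about 3-fold with overload, Myh2 rose, and Myh1 was not called, with either treatment. Myh4 encodes the 2B isoform, the fastest and most glycolytic of the limb. Its level in vehicle sham mice was 50269, 57382, 58835, 60073 and 66279 CPM, against 17306, 18934, 19480, 21248 and 21651 CPM in vehicle MOV mice. Every sham value was more than 2 times the highest overload value. With D + Q the level was 57759, 61524.5, 62151, 66363 and 67533 CPM in sham mice and 16396.5, 20196.5, 22456, 22821 and 24875 CPM in MOV mice, again with a wide gap between groups. The log2 fold change of Myh4 between MOV and sham was -1.56 (SE 0.101, adjusted p = 1.59e-08, edgeR's quasi-likelihood test), or 2.94-fold lower, with vehicle. With D + Q it was -1.51 (SE 0.103, adjusted p = 9.89e-10), or 2.86-fold lower. The size of the fall depends on the processing. Over 9 settings of scaling, filter and method it ran from -1.57 to -1.18 with vehicle and from -1.56 to -1.15 with D + Q.

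Myh2 encodes the 2A isoform of oxidative fast fibers. Its level was 3619, 4306, 4452, 4757 and 5272 CPM in vehicle sham mice and 5331, 7422, 7869.8, 7904 and 8566 CPM in vehicle MOV mice. The groups did not overlap, but the lowest MOV mouse lay just above the highest sham mouse. Myh2 differed by 0.74 on the log2 scale (SE 0.127, adjusted p = 0.00014, edgeR), or 1.67-fold. With D + Q the level was 2952, 3906, 4022, 4386 and 5981 CPM in sham mice and 4479.8, 5362, 5716, 6687 and 6747 CPM in MOV mice, and these groups overlapped because 1 sham mouse stood above 3 of the MOV mice. That difference, 0.50 (SE 0.176, adjusted p = 0.0286, edgeR) or 1.41-fold, passed the test by a small margin. Its adjusted p was 0.055 without D + Q sham replicate 2, 0.0569 without D + Q sham replicate 3, 0.0613 without D + Q MOV replicate 2 and 0.0735 without D + Q MOV replicate 5, with log2 fold changes between 0.45 and 0.47 in these 4 cases. Over the 9 settings the log2 fold change of Myh2 ran from 0.73 to 1.11 with vehicle and from 0.45 to 0.86 with D + Q.

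Myh1 encodes the 2X isoform, intermediate between 2B and 2A. Its level was 12038, 13915, 15210.3, 17619 and 19574 CPM in vehicle sham mice and 11972.5, 16619, 17142, 21165 and 31111 CPM in vehicle MOV mice. One MOV mouse, replicate 2, was far above the others and another was below every sham mouse. With D + Q the level was 10614, 13083, 14965, 16693 and 18669 CPM in sham mice and 12886, 15998, 16927.5, 18542 and 18976 CPM in MOV mice, with the ranges nearly covering each other. The log2 fold change of Myh1 was 0.33 (95% interval -0.16 to 0.83, adjusted p = 0.223, edgeR) with vehicle and 0.22 (-0.10 to 0.53, adjusted p = 0.205) with D + Q. Neither a rise nor a level close to that of sham muscle is outside these intervals. The call depends on the scaling between libraries: when counts were divided by library totals alone, the median of all tested genes moved to 0.36 with vehicle and 0.39 with D + Q, and Myh1 was then called at 0.69 (adjusted p = 0.0138, edgeR) and 0.58 (adjusted p = 0.00344). Relative to those medians its difference is again small.

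**Figure D1:**
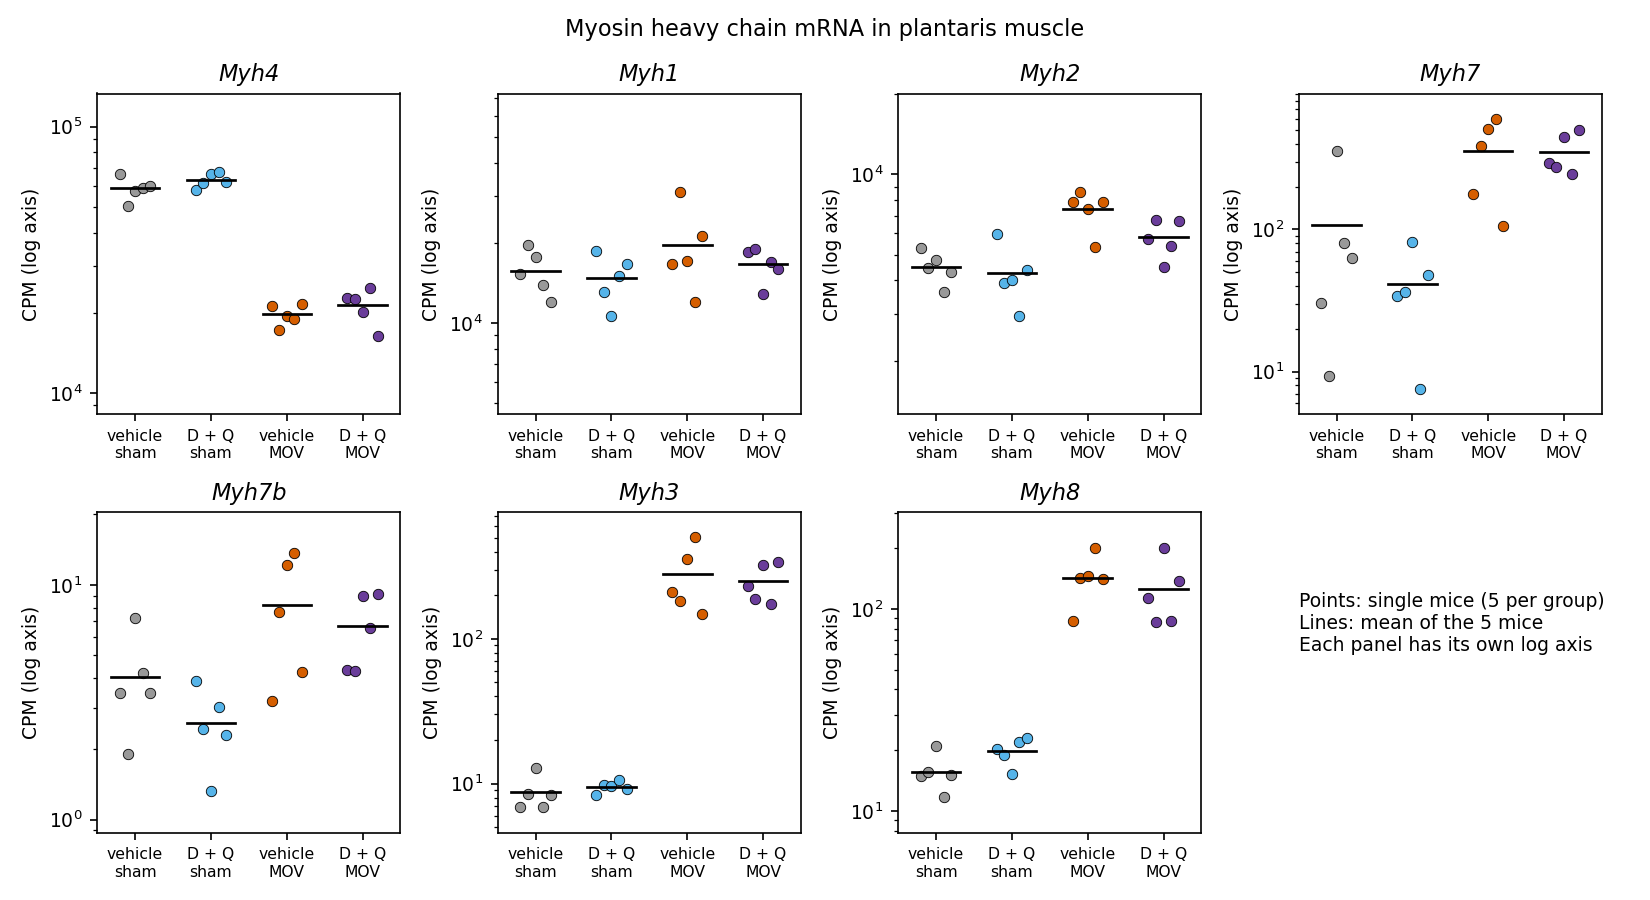
Level of each myosin heavy chain gene in CPM, on a separate log axis in each panel, with 1 point per mouse (5 per group) and a line at the group mean. Myh4 is lower in every MOV mouse than in any sham mouse, Myh3 and Myh8 are higher in every MOV mouse than in any sham mouse, and 1 vehicle sham mouse stands far above the other 4 in Myh7.

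Myh7, the slow type 1 isoform, and Myh7b were more variable. Both were called higher with overload in D + Q mice but not in vehicle mice, and the vehicle result of each depended on which mice were included. In vehicle sham mice Myh7 read 9.38, 30.2, 62.7, 80.3 and 357.7 CPM, and in vehicle MOV mice it read 106, 179, 388, 509 and 603 CPM. The highest sham mouse, replicate 3, stood above 2 of the 5 MOV mice. In D + Q sham mice Myh7 read 7.53, 34.1, 36.1, 47.9 and 81.4 CPM, and in D + Q MOV mice it read 246, 273, 293, 447 and 504 CPM, so these groups lay well apart. The log2 fold change was 1.74 (SE 0.943, adjusted p = 0.144, edgeR) with vehicle and 3.14 (SE 0.546, adjusted p = 0.000893) with D + Q, the latter 8.79-fold. Without vehicle sham replicate 3 the vehicle value was 2.98 (adjusted p = 0.0121). Whether the Myh7 response differed between treatments was tested by the interaction of surgery and treatment, which gave 1.36 (SE 1.07, adjusted p = 0.931, edgeR) over all 20 mice and 0.12 without that mouse.

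Myh7b was the lowest member in every group. It read 1.90, 3.45, 3.47, 4.19 and 7.22 CPM in vehicle sham mice and 3.21, 4.27, 7.63, 12.2 and 13.6 CPM in vehicle MOV mice, with overlapping ranges and with replicate 3 again the highest of the sham mice. With D + Q it read 1.32, 2.29, 2.44, 3.01 and 3.89 CPM in sham mice and 4.28, 4.34, 6.52, 8.93 and 9.17 CPM in MOV mice, which did not overlap. The log2 fold change was 1.03 (SE 0.458, adjusted p = 0.0746, edgeR) with vehicle and 1.40 (SE 0.291, adjusted p = 0.000824) with D + Q. The vehicle value became 1.34 (adjusted p = 0.0295) without vehicle sham replicate 3, 1.26 (adjusted p = 0.0231) without vehicle MOV replicate 1 and 1.22 (adjusted p = 0.0434) without vehicle MOV replicate 5.

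The developmental genes showed the largest differences of the family. Myh3, the embryonic isoform, read 6.86, 6.93, 8.30, 8.52 and 12.8 CPM in vehicle sham mice and 148, 183, 211, 357 and 501 CPM in vehicle MOV mice. With D + Q it read 8.30, 9.22, 9.66, 9.81 and 10.5 CPM in sham mice and 175, 189, 232, 324 and 339 CPM in MOV mice. No sham mouse came near the lowest overload mouse under either treatment. Myh3 differed by 5.03 on the log2 scale (SE 0.422, adjusted p = 7.65e-06, edgeR), or 32.8-fold, with vehicle, and 4.77 (SE 0.234, adjusted p = 7.80e-08), or 27.3-fold, with D + Q. Myh8, the perinatal isoform, read 11.7, 14.9, 15.1, 15.6 and 21.0 CPM in vehicle sham mice and 87.6, 140.04, 142, 146 and 199.6 CPM in vehicle MOV mice. With D + Q it read 15.2, 18.9, 20.3, 22.1 and 23.0 CPM in sham mice and 85.7, 87.2, 114, 138 and 201 CPM in MOV mice. Here too all MOV mice lay above all sham mice. Myh8 differed by 3.21 on the log2 scale (SE 0.223, adjusted p = 6.46e-07, edgeR), or 9.24-fold, with vehicle, and 2.701 (SE 0.271, adjusted p = 2.11e-05), or 6.50-fold, with D + Q.

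Over the family, 3 of 7 members were called higher and 1 lower in MOV against sham muscle with vehicle, where 30.7% of 14601 tested genes were called higher and 29.8% lower. The groups did not overlap for 4 of the 7 members, compared with 46.5% of tested genes. With D + Q, 5 members were called higher and 1 lower, where 34.4% of 14913 tested genes were called higher and 30.9% lower. Groups did not overlap for 5 of the 7 members, compared with 53.1% of tested genes. Most tested genes were called in one direction or the other, and with 7 members these counts are a description. The overload comparisons in vehicle and D + Q mice share no animals.

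**Figure D2:**
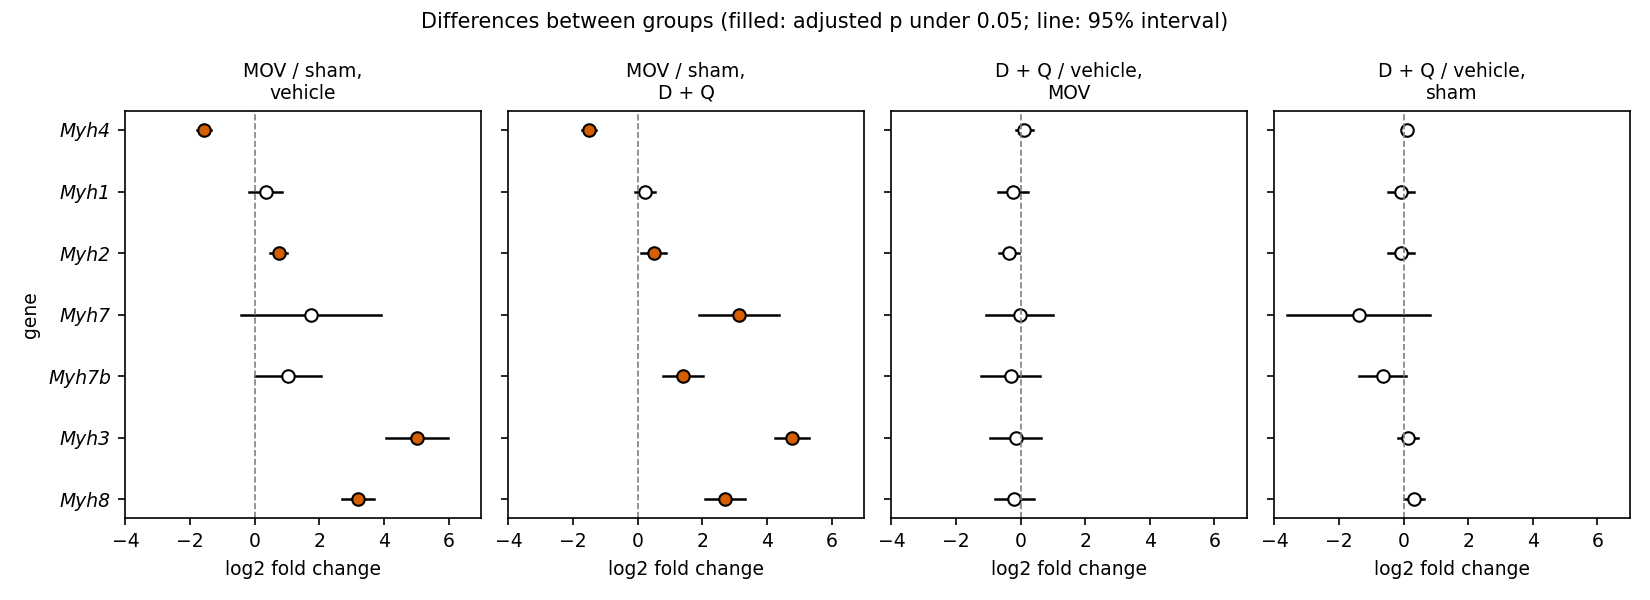
Log2 fold change of each member (x axis) in 4 comparisons, with a line for the 95% interval from edgeR and a filled point where the adjusted p was under 0.05. Points of Myh3, Myh8 and Myh2 lie to the right of 0 and Myh4 to the left in both overload comparisons, and no point is filled in the D + Q comparisons.

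Within a mouse, the share of each adult gene was taken per length, as CPM per kilobase of the reference transcript, relative to the sum of Myh4, Myh1, Myh2 and Myh7. Myh4 made up 78.0% ± 3.99 (SD, n = 5) of this sum in vehicle sham and 80.3% ± 4.05 in D + Q sham muscle, and 47.8% ± 7.97 in vehicle MOV and 53.4% ± 4.84 in D + Q MOV muscle. The lowest sham share was 72.2% and the highest MOV share was 58.2%. The Myh1 share was 16.6% ± 3.69 in vehicle sham and 35.9% ± 8.15 in vehicle MOV muscle, and 14.9% ± 3.11 and 32.9% ± 2.67 with D + Q. So Myh1 took a larger part of the adult sum although its own CPM was not called under the scaling used here. The Myh2 share was 5.23% ± 0.531 in vehicle sham and 15.4% ± 1.08 in vehicle MOV muscle, and 4.76% ± 1.29 and 12.8% ± 2.34 with D + Q. Myh7 stayed minor, with 0.139% ± 0.182 in vehicle sham, 0.0515% ± 0.0332 in D + Q sham, 0.875% ± 0.616 in vehicle MOV and 0.892% ± 0.393 in D + Q MOV muscle. Added together per length, the 7 members reached 12595 ± 834 CPM per kilobase in vehicle sham and 7131 ± 988 in vehicle MOV muscle, and 13191 ± 404 and 6768 ± 731 with D + Q. The highest MOV sum, 8408, lay under the lowest sham sum, 11698. The size of this fall depends on the scaling between libraries. As a part of all counts the 7 members averaged 6.80% in vehicle sham and 5.33% in vehicle MOV muscle, and 7.21% and 5.19% with D + Q. There the highest MOV mouse was at 6.09% and the lowest sham mouse at 6.48%.

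**Figure D3:**
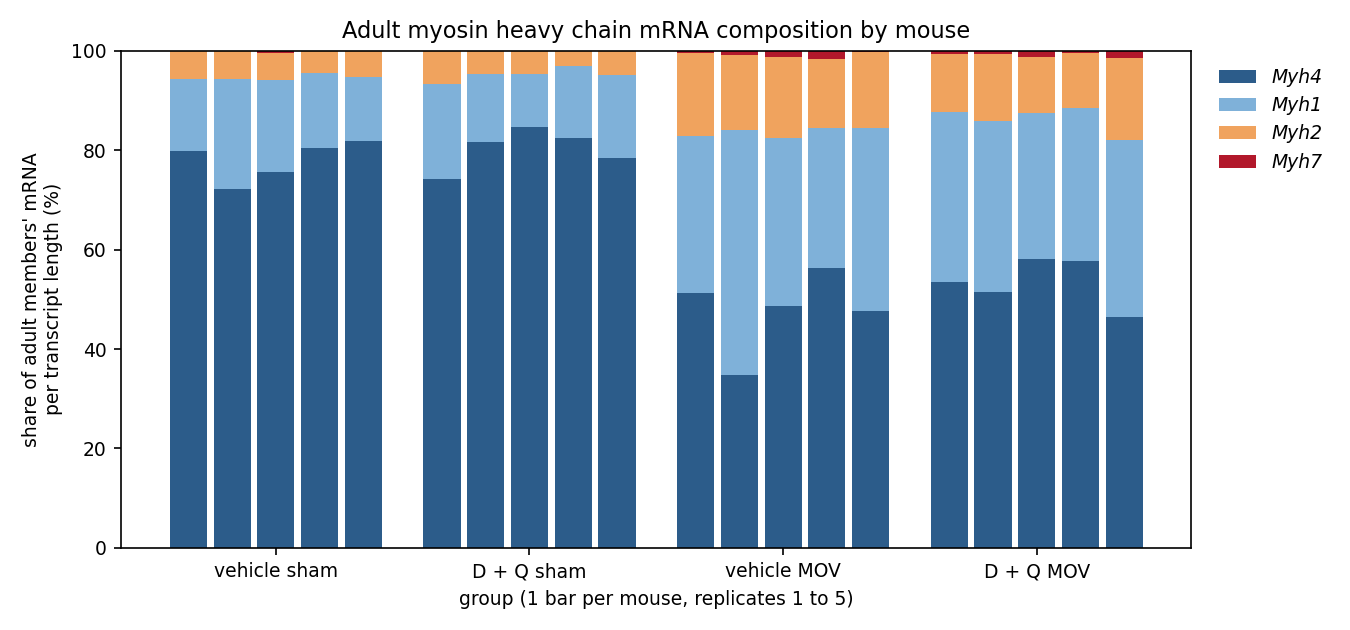
Share of Myh4, Myh1, Myh2 and Myh7 in their summed level per transcript length, in percent, with 1 bar per mouse. Myh4 fills 72.2% to 84.7% of each sham bar and 34.8% to 58.2% of each MOV bar, with larger parts for Myh1 and Myh2 in the MOV bars.

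Myh3 and Myh8 together made up 0.0317% ± 0.00751 of the summed level per length of all 7 members in vehicle sham and 1.04% ± 0.594 in vehicle MOV muscle, and 0.0364% ± 0.00341 and 0.951% ± 0.405 with D + Q. The developmental genes therefore stayed near 1 part in 100 of heavy chain mRNA even in overloaded muscle, and the highest mouse reached 2.00%. Their order changed with surgery. The log2 ratio of Myh3 to Myh8 per length averaged -0.84 in vehicle sham and -1.03 in D + Q sham mice, and 0.89 in vehicle MOV and 1.06 in D + Q MOV mice. Myh8 was above Myh3 in all 10 sham mice and Myh3 above Myh8 in all 10 MOV mice. Their per-length ranges overlapped in 3 of the 4 groups.

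The order of mean levels per length was Myh4, Myh1, Myh2, Myh7, Myh8, Myh3 and Myh7b in both sham groups, and in both MOV groups Myh3 and Myh8 changed places. Myh4 exceeded Myh1 by 4.74-fold in vehicle sham and 5.40-fold in D + Q sham muscle, in every mouse. In vehicle MOV muscle the ratio of means was 1.28, the ranges of Myh4 and Myh1 overlapped, and Myh4 was above Myh1 in 4 of 5 mice. In D + Q MOV muscle the ratio was 1.62 and the ranges were apart. Neighbors in this order whose ranges overlapped were also Myh7 and Myh8 in both sham groups, Myh8 and Myh3 and then Myh3 and Myh7b in vehicle sham muscle, and Myh7 and Myh3 and then Myh3 and Myh8 in both MOV groups. All other neighbors had ranges apart. The gap between Myh4 and Myh1 depends on the length used, as their reference transcripts have 5954 and 7546 bases. By coding length Myh4 and Myh1 averaged 42.9% and 40.6% of the adult sum in vehicle MOV muscle. In D + Q MOV muscle they averaged 48.3% and 37.6%. In CPM, with no length, the D + Q MOV ranges overlapped, at 16396.5 to 24875 for Myh4 and 12886 to 18976 for Myh1.

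The log2 ratio of Myh2 to Myh4 per length, a measure of the 2A against the 2B program within each library, ran from -4.21 to -3.69 in vehicle sham and from -2.02 to -1.21 in vehicle MOV mice. It ran from -4.71 to -3.46 in D + Q sham and from -2.40 to -1.48 in D + Q MOV mice. Surgery separated all mice on this ratio, by 2.29 on the log2 scale (4.89-fold) with vehicle and by 2.04 (4.12-fold) with D + Q. D + Q and vehicle mice overlapped on it in MOV, with a difference of -0.46, and in sham, with a difference of -0.21. The log2 ratio of Myh1 to Myh4 likewise rose by 1.84 with vehicle and by 1.76 with D + Q without overlap, whereas that of Myh2 to Myh1 overlapped between sham and MOV, with differences of 0.45 and 0.28.

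**Figure D4:**
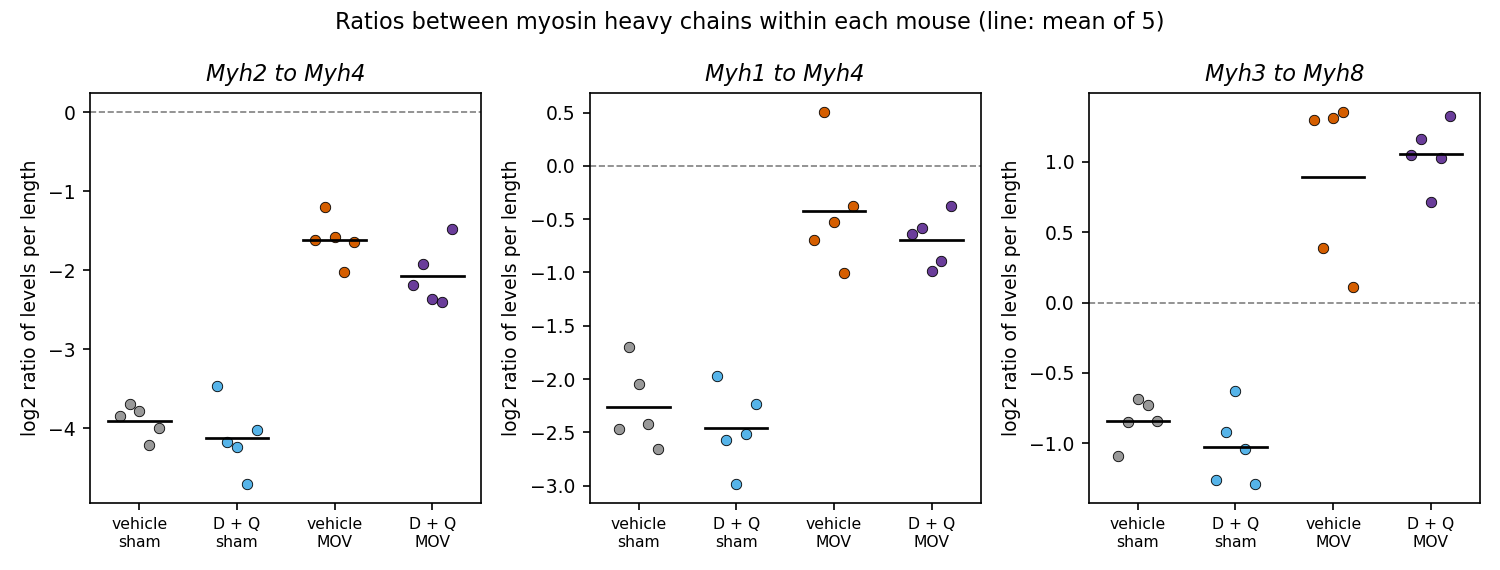
Log2 ratios of Myh2 to Myh4, Myh1 to Myh4 and Myh3 to Myh8 per transcript length, with 1 point per mouse, a line at each group's mean and a dashed line at equal levels. MOV and sham mice do not overlap in any panel, and the ratio of Myh3 to Myh8 is below 0 in every sham mouse and above 0 in every MOV mouse.

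Whether D + Q altered the family was examined in overloaded and in resting muscle. None of the 7 members was called in either. In MOV muscle 0% of 15238 tested genes were called in each direction by edgeR, with 1340 at an unadjusted p under 0.05 and 11 called by DESeq2. The study itself reported far more differentially expressed genes between these groups with DESeq2 at an FDR under 0.05. The cause of that gap was not tested. The groups did not overlap for 1.5% of tested genes, and for none of the members. Myh2 was lowest in p, with a log2 fold change of -0.36 (95% interval -0.67 to -0.06, unadjusted p = 0.022, adjusted p = 0.525, edgeR), and all 5 D + Q MOV mice lay below 4 of the 5 vehicle MOV mice. Myh4 differed by 0.11 (-0.15 to 0.37), Myh1 by -0.24 (-0.71 to 0.22) and Myh8 by -0.20 (-0.80 to 0.40). For Myh3 the difference was -0.16 (-0.95 to 0.63), for Myh7 -0.02 (-1.06 to 1.02) and for Myh7b -0.30 (-1.22 to 0.61). The intervals of Myh7 and Myh7b reach past 1 on the log2 scale on at least one side, while that of Myh4 is the narrowest of the family.

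In sham muscle 0.187% of 13926 tested genes were called higher and 0.0287% lower with D + Q by edgeR, 30 genes in all. That total was 133 with DESeq2 and ran from 2, without D + Q sham replicate 3 or 5, to 74, without vehicle sham replicate 5. Of the tested genes 2.12% did not overlap between the groups, again with no member among them. Myh8 had the lowest p, at 0.34 (95% interval 0.03 to 0.64, unadjusted p = 0.035, adjusted p = 0.451, edgeR). Myh4 differed by 0.10 (-0.05 to 0.24), Myh1 by -0.09 (-0.49 to 0.31), Myh2 by -0.09 (-0.50 to 0.32) and Myh3 by 0.13 (-0.19 to 0.44). For Myh7 the difference was -1.39 (-3.60 to 0.82) and for Myh7b -0.65 (-1.38 to 0.08), and without vehicle sham replicate 3 these were -0.14 and -0.34. No member was called in the interaction, in which 0.00637% of 15700 tested genes were called higher and the same share lower. Beside Myh7, the interaction estimates were -0.54 (-1.27 to 0.19) for Myh8, -0.28 (-0.75 to 0.19) for Myh2, -0.30 (-1.25 to 0.66) for Myh3, -0.15 (-0.77 to 0.47) for Myh1 and 0.01 (-0.28 to 0.29) for Myh4. For Myh7b, called with D + Q and not with vehicle, the interaction was 0.34 (-0.90 to 1.57, adjusted p = 0.978, edgeR), so its response was not shown to differ between treatments.

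The partners of the myosins were read from the same fits. In MOV against sham muscle, 30.7% of all tested genes were called higher and 29.8% lower with vehicle. With D + Q these shares were 34.4% and 30.9%. Counts over short lists are a description beside them. Of 12 fast fiber genes, which encode fast troponins, the fast calcium pump and glycolytic enzymes, all 12 were called lower in MOV against sham muscle with each treatment. Their median log2 fold change was -0.86 with vehicle and -0.84 with D + Q, beside medians over all tested genes of -0.02 and 0.02. The strongest falls with vehicle were in Tnnt3, fast troponin T (-1.23, adjusted p = 5.75e-08, edgeR), and Pvalb, the calcium buffer parvalbumin (-1.004, adjusted p = 1.02e-05). Of 10 slow fiber genes, 9 were called higher and 1 lower with each treatment, with medians of 1.77 and 2.15. Csrp3, a Z-disc protein, rose by 3.46 (adjusted p = 8.36e-06) and Tnni1, slow troponin I, by 3.03 (adjusted p = 0.00462) with vehicle, while Mybpc1, a slow myosin-binding protein that fast fibers also make, fell by 0.44 (adjusted p = 0.00193). Without vehicle sham replicate 3 the vehicle counts were again 12 lower for the fast genes, and 9 higher and 1 lower for the slow genes. Scaled by library totals alone, 11 of 12 fast genes were lower and 9 of 10 slow genes higher with each treatment, and Mybpc1 was no longer called lower.

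Myosin light chains did not divide by type as the fast and slow fiber genes did. The same shares of all tested genes stand beside the counts here, which are a description. Of the 4 genes for fast light chains and their kinases, 0 were called higher and 2 lower with either treatment, and both were kinases, Mylk4 (-2.003, adjusted p = 3.14e-05, edgeR, with vehicle) and Mylk2 (-0.79, adjusted p = 0.000922). The fast light chains Myl1 (-0.11) and Mylpf (0.06) were not called with vehicle or with D + Q. Scaled by library totals alone, 2 of the 4 were called higher and 2 lower. Of the 4 slow and developmental light chains, 2 were called higher and 1 lower with vehicle, and 3 higher and 0 lower with D + Q. Myl4, the embryonic and atrial light chain, rose by 3.73 (adjusted p = 1.65e-05) and Myl6b by 2.43 (adjusted p = 8.26e-08) with vehicle, and Myl3, a slow and ventricular light chain, fell by 0.64 (adjusted p = 0.0365). Vehicle sham replicate 3 read 106 CPM in Myl3, against 49.2 to 69.7 CPM in the other 4 mice of its group, and without it 3 of the 4 were called higher and 0 lower with vehicle, as they also were with library totals alone. Myl3 was not called with D + Q (-0.35, adjusted p = 0.14).

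Genes of regenerating fibers moved in the direction of Myh3 and Myh8. Beside the counts that follow, 30.7% of all tested genes were called higher and 29.8% lower with vehicle. With D + Q these shares were 34.4% and 30.9%. Of 14, 11 were called higher and 0 lower with vehicle, and 11 higher and 1 lower with D + Q, with median log2 fold changes of 2.65 and 2.73. Mymk, the membrane protein of myoblast fusion, rose by 5.48 (adjusted p = 1.62e-07, edgeR) and Tnnt2, the embryonic and cardiac troponin T, by 4.58 (adjusted p = 1.71e-09) with vehicle. The gene called lower with D + Q was Cdh15, the satellite cell cadherin (-0.22, adjusted p = 0.0452), named here after its value was seen. With library totals alone Cdh15 was not called lower, as 14 of the 14 were higher with vehicle, and 13 higher and 0 lower with D + Q. Of 28 regulators of fiber type, 6 were called higher and 16 lower with vehicle, and 7 and 17 with D + Q, but with library totals alone these were 12 and 11, and 12 and 8. The largest rises with vehicle were in Nfatc4 (2.74, adjusted p = 1.42e-09), a calcineurin-dependent factor, and Vgll3 (2.11, adjusted p = 2.89e-07), a cofactor of TEAD proteins. The largest falls were in Tbx15 (-1.05, adjusted p = 9.75e-08), a factor of glycolytic fibers, and Maf (-1.02, adjusted p = 2.60e-07), a large Maf factor of the kind that drives type 2B myosin. Of 13 genes for myosin folding, assembly and turnover, 3 were called higher and 9 lower with vehicle, and 4 and 9 with D + Q, or 4 and 5, and 4 and 7, with library totals alone. Mybph, a myosin-binding protein, rose by 3.96 (adjusted p = 0.00236) and Myom3, an M-band protein, by 1.24 (adjusted p = 0.000425). Fbxo32, the ubiquitin ligase atrogin-1, fell by 1.14 (adjusted p = 0.000203) and Smyd2, a lysine methyltransferase, by 1.07 (adjusted p = 3.00e-05). No gene of these lists was called for D + Q against vehicle in MOV muscle. There 0 of 15238 tested genes were called in each direction by edgeR, so this is no result about the lists.

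Likeness to each member was taken as Pearson's r of log2 CPM over the 20 mice after the mean of each group was removed, among 15684 genes, as a description. Myh7 followed slow troponins, with r = 0.959 for Tnnc1, 0.927 for Tnni1 and 0.903 for Tpm3, slow tropomyosin. Of the other slow fiber genes, Tnnt1 (0.883) and Atp2a2 (0.876) were also close. The rest did not follow Myh7: Casq2 (0.168), Myoz2 (0.129), Csrp3 (-0.137), Fhl1 (-0.268) and Mybpc1 (-0.372). In vehicle sham replicate 3, where Myh7 was 7.70-fold above the median of the other 4 mice, Tnni1 was 5.94-fold, Tnnc1 5.01-fold and Tnnt1 3.84-fold above theirs, 7 of 10 slow fiber genes lay above the other 4 mice, and 0 of 12 fast fiber genes did. Myh7b, Myh3 and Myh8 were also highest in that mouse. For Myh4 the closest genes were Tmem132b (0.820), Glb1l2 and Tdrp, for Myh1 Adcy2 (0.917) and Cdadc1, and for Myh2 Rrp7a (0.879), Gm43136 and mt-Cytb. For Myh3 they were 1600012H06Rik (0.812), Ccnd3 and Dcx, for Myh8 Casq2 (0.842), Rit1 and Zfp984, and for Myh7b Mfhas1 (0.842), Cdc42ep1 and Ufsp1. Between members, r was 0.665 for Myh3 with Myh8, 0.662 for Myh7b with Myh8, 0.635 for Myh3 with Myh7b and 0.595 for Myh1 with Myh2. These points share 20 libraries, and the closest of so many genes will be high by selection.

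**Figure D5:**
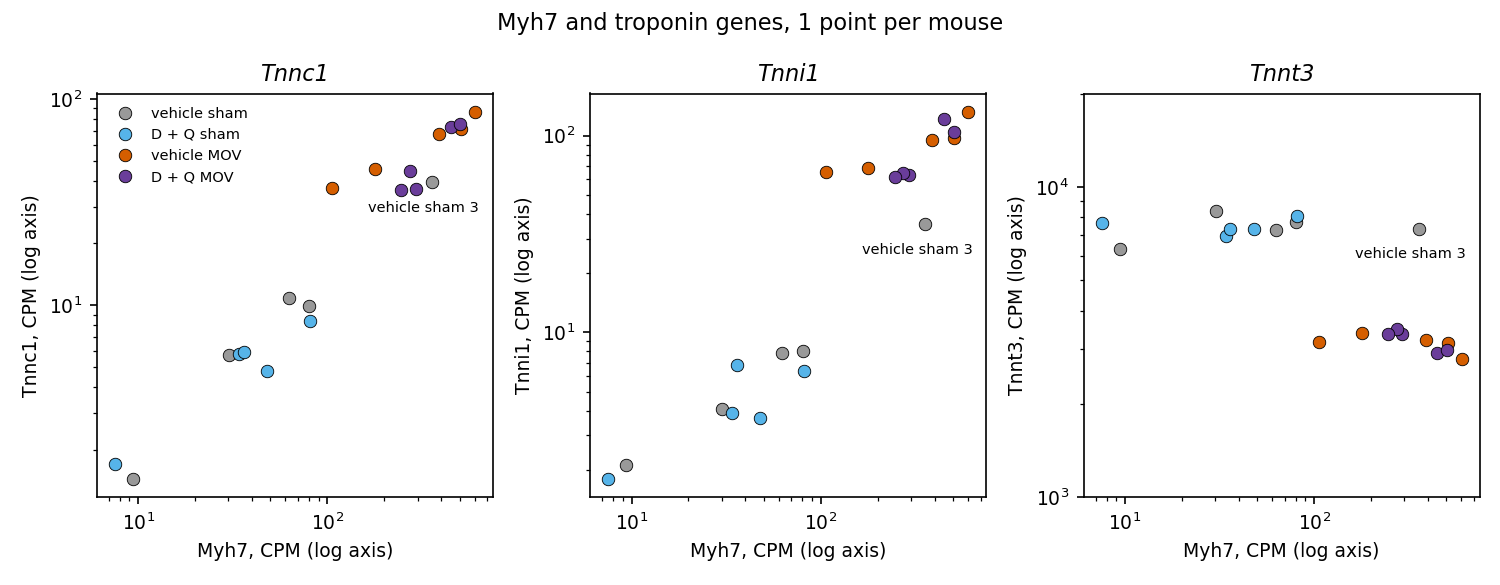
Level of Tnnc1, Tnni1 and Tnnt3 against that of Myh7 in CPM on log axes, with 1 point per mouse colored by group. Vehicle sham replicate 3 lies within the MOV range for Tnnc1, between the other sham mice and the MOV mice for Tnni1, and with the sham mice for the fast troponin Tnnt3.

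The noncoding genes Myhas and 2310065F04Rik, 2 of those annotated at the chromosome 11 cluster, were lower with overload. Myhas, an antisense transcript between Myh1 and Myh4 at chr11:67102082-67128720 on the minus strand, averaged 48.8 ± 3.83 CPM (SD, n = 5) in vehicle sham and 30.6 ± 4.87 CPM in vehicle MOV muscle, a log2 fold change of -0.66 (adjusted p = 4.15e-05, edgeR). It shares 907 exonic bases with Myh1 and 383 with Myh4 on the opposite strand, and whether counting used strand is not given in the sources used here, so its reads and theirs cannot be told apart there. The long noncoding gene 2310065F04Rik, at chr11:66999302-67011271 between Myh3 and Myh2, averaged 79.7 ± 13.3 and 25.9 ± 5.87 CPM, a change of -1.61 (adjusted p = 4.05e-06). With D + Q both fell as well, by 0.65 (adjusted p = 1.39e-06) and 1.42 (adjusted p = 2.18e-08). Mhrt, antisense to Myh7 over 2462 exonic bases, was at or under 0.330 CPM in every mouse.

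The 250 bases upstream of the start are shown for the 3 adult fast genes because they lie side by side and Myh4 fell, Myh2 rose and Myh1 was not called. They are RefSeq sequence on GRCm38.p6, plus strand, and capitals mark matches to the E-box (CANNTG, both strands), the MEF2 site, the CArG box and the TATA box (TATAAA, plus strand).
Myh4, chr11:67237562-67237811: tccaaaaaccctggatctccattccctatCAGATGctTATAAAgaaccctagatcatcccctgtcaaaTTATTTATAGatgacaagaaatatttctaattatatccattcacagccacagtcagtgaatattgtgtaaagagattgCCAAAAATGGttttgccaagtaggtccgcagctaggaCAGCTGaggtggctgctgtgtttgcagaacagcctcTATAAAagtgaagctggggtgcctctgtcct
Myh1, chr11:67199852-67200101: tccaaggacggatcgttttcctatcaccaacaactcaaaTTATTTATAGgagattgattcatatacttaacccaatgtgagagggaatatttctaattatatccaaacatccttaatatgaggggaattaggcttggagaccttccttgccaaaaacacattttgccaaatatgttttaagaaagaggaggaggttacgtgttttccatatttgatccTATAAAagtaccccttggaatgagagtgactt
Myh2, chr11:67170777-67171026: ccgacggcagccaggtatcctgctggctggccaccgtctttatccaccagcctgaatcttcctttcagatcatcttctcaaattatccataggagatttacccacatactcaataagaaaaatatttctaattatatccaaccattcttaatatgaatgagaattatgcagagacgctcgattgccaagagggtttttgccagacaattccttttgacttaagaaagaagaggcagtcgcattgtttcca

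In these windows Myh4 held 2 E-boxes, 1 MEF2 match, 1 CArG match and 2 TATA matches, Myh1 held 1 MEF2 and 1 TATA match, and Myh2 held none. Among the other members, Myh8 had 1 E-box and 1 MEF2 match, Myh3 1 E-box and 1 TATA match, Myh7b 1 E-box and 2 MARE cores (TGCTGAC), and the 2 listed starts of Myh7 had 1 and 2 E-boxes. MEF3 (TCAGGTTTC) was in none of the 7 genes. The windows scanned for motifs reached past the start, for Myh4 to chr11:67237861, but every match listed lay upstream of it. Of 32851 RefSeq promoter windows, 66.2% held an E-box, 7.59% a TATA match and 3.81% a MARE core. A MEF2 match was in 2.92%, a CArG match in 1.47% and a MEF3 match in 0.387%. No match listed here overlapped another motif's match in the same window, and the windows of the 2 Myh7 starts overlap and share 1 E-box. A match is a run of letters only.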

How the data were processed

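RNA was sequenced from the plantaris of 20 mice, 5 in each of 4 groups taken from the sample labels. The authors aligned reads to GRCm39 with STAR 2.7.8a and counted reads per gene by expectation-maximization in Partek. The deposited values are estimated counts, of which 29.82% were not whole, and they were rounded before testing. The 8 Myh4 values of 1000000 or more were deposited to 3 digits, an error of at most 0.495%. The number of columns left unused was 0. Read length and strand handling are not given in the sources used here.

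Each comparison was fitted on its own 10 mice with edgeR 4.0.16 (R 4.3.3): TMM scaling, a filter keeping genes that reached 10 counts in 5 or more mice, robust quasi-likelihood tests, and Benjamini-Hochberg adjustment over all tested genes with a threshold of 0.05. The interaction used all 20 mice. The main test was tried on simulated counts for D + Q against vehicle in sham mice only. The overload comparisons and the interaction were not simulated. CPM values used TMM factors of all mice, and levels per length used the Ensembl canonical transcript. Coding sequences were aligned with MAFFT 7.526, and promoters were RefSeq sequence. Proteins were not compared here. The members and gene lists were chosen with earlier results of these data known. Named beside the members were at most 2 called genes in each direction per list, ranked by fold change in vehicle mice, and the 3 closest genes to each member, of which 1 is not reported here. Alternatives were DESeq2 1.42.0, limma-voom 3.58.1, other scalings and filters, unrounded counts, a replicate block, other lengths, and leaving out each mouse. List counts without vehicle sham replicate 3 and under other scalings were added after seeing the data.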

Additional observations from a re-analysis of the deposited data

Results flagged for a closer look

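Dixon's test was run on the CPM of each member and on the log2 ratio of Myh2 to Myh4. It was not run on the log2 CPM of the members, where a high value stands out less. Of 32 groups of 5 mice examined, 2 had a mouse far from the others by this test, and chance flags about 1 in 20 groups. Both were vehicle sham replicate 3. Its Myh7 level was 357.7 CPM, against 9.38 to 80.3 CPM in the other 4 mice, and the gap took 0.796 of the group's range. Its Myh3 level was 12.8 CPM, against 6.86 to 8.52 CPM, and the gap took 0.719 of the range. In the same mouse 3 of 4 slow and developmental light chains and 7 of 10 slow fiber genes were above the other 4 mice.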

How the results depend on the processing

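In vehicle mice, 5 members were called higher in MOV with library totals alone, and 3 to 5 when single mice were left out, with the 5 reached without vehicle sham replicate 3. In D + Q mice this was 4 to 5, and Myh2 was also lost with no filter on low counts (0.49, adjusted p = 0.0694, edgeR). Myh7b in vehicle mice was called with library totals alone (1.43, adjusted p = 0.0224, edgeR) and with all 20 mice in one fit (1.02, adjusted p = 0.0378). The Myh7 difference between D + Q MOV and vehicle MOV mice turned to 0.0152 with library totals alone and 0.28 with limma-voom. Leaving out single mice gave -0.25 to 0.24 for Myh7 and -0.31 to 0.15 for Myh3 in that comparison, -0.20 to 0.00785 for Myh1 and -0.25 to 0.0229 for Myh2 between the sham groups, and -0.0533 to 0.0895 for Myh4, -0.28 to 0.0590 for Myh1 and -0.47 to 0.0211 for Myh3 in the interaction. None of these was called, and the cause was not tested. By coding length or with no length, the Myh1 share in D + Q MOV muscle was 37.6% or 37.7% and the Myh4 share 48.3%, and with no length the Myh1 share in D + Q sham muscle was 18.0%. The length that divides each gene is the only change there.

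Replicate numbers did not pair the mice. Correlations of same-numbered mice ran from -0.15 to 0.185, and at most 3 of 10 mice were closest to their own number. With the replicate block Myh7b in vehicle mice was called (0.94, adjusted p = 0.0217, edgeR), Myh7 between the MOV groups was 0.15, and 8694 genes were called against 8831 for MOV in vehicle mice.

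The lowest member, Myh7b, was at 1.32 to 13.6 CPM, where counting error is largest, and the estimated split of reads among near-identical genes adds an error that replicates do not show.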

Other observations

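Other class II heavy chains were less uniform than the fast fiber genes. Of 6 tested, 2 were called higher and 1 lower in MOV against sham muscle with each treatment, and Myh15 was not tested. Of all tested genes 30.7% were called higher and 29.8% lower with vehicle, and 34.4% and 30.9% with D + Q. The counts of this list are therefore a description and no result about the list. Myh9 and Myh10, the nonmuscle isoforms of most cells, rose by 1.80 (adjusted p = 1.91e-07, edgeR) and 1.31 (adjusted p = 6.59e-08) with vehicle, and Myh13, the isoform of eye muscles, fell by 0.67 (adjusted p = 0.0211). Scaled by library totals alone, Myh13 was no longer called in vehicle mice, as 4 of the 6 were then higher and 0 lower. Among the listed genes, Myh9 was the single one called for D + Q in sham muscle (0.33, adjusted p = 0.0405), named after its value was seen.

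Markers of other cells in MOV against sham muscle with vehicle were called higher for 6 of 6 macrophage, 6 of 6 fibroblast, 4 of 6 endothelial, 3 of 5 smooth muscle and 2 of 5 Schwann cell genes. Without vehicle sham replicate 3 the last 2 counts were 2 of 5 and 1 of 5. With all vehicle mice, 30.7% of all tested genes were called higher and 29.8% lower, and with D + Q 34.4% and 30.9%. Lmod1, a smooth muscle actin regulator, was called lower (-1.38, adjusted p = 0.00131, edgeR). Col1a1 and Col3a1, fibrillar collagens, rose by 5.58 and 5.28, and Adgre1 and Cd68, macrophage surface and lysosomal proteins, by 3.38 and 2.85. Of 4 adipocyte genes 1 was called higher and 3 lower, led by Plin1, a lipid droplet protein (-2.06, adjusted p = 0.000354, edgeR). Of 8 muscle fiber markers 1 was called higher and 4 lower with vehicle, and 0 and 5 with D + Q. Scaled by library totals alone, 4 were higher and 3 lower with vehicle, and 3 and 4 with D + Q. Tnnt3 is in this list and also among the fast fiber genes.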
